A study of Homo sapiens with 26 samples.

Results

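The comparison described here asked which transcripts depend on NOTCH3 in MDA-MB-468 cells, by blocking the receptor with the antibody A4. MDA-MB-468 is an established human breast cancer line of the basal-like, triple-negative type. The members are the 5 arrays of the antagonism experiment labelled with A4 plus DMSO (2 arrays, all that the labels give) or with the control anti-gD IgG plus DMSO (3 arrays), of 26 arrays in all. Cells were plated and grown for 40 h. They then received 10 µg/ml of either antibody together with 0.05% DMSO, and RNA was taken 24 h later. Both groups therefore shared the cell line, the antibody dose and the solvent, and differed in the antibody. Another 3 arrays of the same experiment, from cells given the control IgG with 5 µM of the gamma-secretase inhibitor DAPT, entered the fit only to estimate the spread between arrays. A set of 6 arrays from the agonism experiment of the same study (3 with the NOTCH3 agonist antibody A13, 3 with control IgG) served as a separate measurement of the same genes. Nothing in the labels ties each array to a culture of its own, so the p-values measure only the spread between these arrays, which may be technical. The results describe 1 cell line, whose name is spelled MBA-MB-468 in the labels' cell line field.

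Notch receptors are single-pass membrane proteins. Binding of a Jagged or Delta ligand on a neighbouring cell exposes the receptor to an ADAM protease and then to gamma-secretase, which frees the intracellular domain. That domain enters the nucleus and joins the DNA-binding protein RBPJ and a Mastermind coactivator to switch on genes such as the HES and HEY repressors, NRARP and, in several cell types, MYC, CCND1 and NOTCH3 itself. RBPJ is known to bind DNA at the core letters TGGGAA. NOTCH3 is widely expressed in vascular smooth muscle and is also present in breast epithelium and in breast cancers.

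Intensities were read per probe set, a group of probes for 1 transcript, and each of 19775 genes was represented by 1 probe set. Levels are log2 intensities, changes are differences of log2 group means (A4 minus control), errors are standard errors (SE), and 1 log2 unit is a 2-fold difference. A gene passed at a Benjamini-Hochberg adjusted p under 0.05 over all genes in limma. Rose and fell are used for such genes alone. Probe set brightness differs between genes, so a percentile among genes on an array gives only a rough place on the scale, and no change was read from levels of different genes. Median log2 intensities over all probe sets were nearly equal across the 8 arrays of the experiment (7.60 to 7.65). Controls 2 and 3 stood apart from the rest: the SD of the deviation from the group mean was 0.183 and 0.147 for them and 0.0717 to 0.099 for the other 6 arrays. The SD of the difference between these 2 controls was 0.32, compared with 0.143 between both A4 arrays and 0.147 between A4 array 1 and control 1. The epithelial markers EPCAM, KRT8, KRT18 and KRT19 and the receptor gene EGFR, which is known to be amplified in this line, lay at or above the 99.2 percentile of genes on all 5 arrays. KRT5, a basal keratin, lay between the 96.6 and 98.3 percentiles. ESR1 (29.3 to 41.8), PGR (14 to 19.2) and the tumour suppressor gene RB1 (12.5 to 24.7) lay below the median gene. The receptor gene ERBB2 (71 to 74.9) lay above it, as did VIM (50.7 to 58.8) and the cadherin genes CDH1 (91.2 to 92.7) and CDH3 (88.6 to 90.7). KRT6B and KRT17 are not analysed here.

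With the blocking antibody the transcripts of NOTCH3, of its target HES1 and of the oncogene MYC fell, as did those of the secreted proteins OLFML3, OLFM4 and SERPINA3. A group led by IGFBP5, RGS2 and GLYATL2 rose. In all, 20 genes passed, 9 higher and 11 lower, which is 0.101% of the genes tested (0.0455% higher, 0.0556% lower). For each of the 20 the A4 arrays lay wholly outside the range of the controls, as they did for 24.9% of all genes. The 20 were chosen on these same arrays, so their lack of overlap is no separate support. Changes ran from 1.5-fold to 3-fold, and 5 of the 20 were at least 2-fold. At an unadjusted p under 0.05 there were 1836 genes, or 9.28% (4.43% higher, 4.85% lower). The calls rested on few arrays. With either A4 array left out 0 genes passed by limma, with 1545 and 825 at an unadjusted p under 0.05. The count was 3, 96 and 6 without control 1, 2 and 3, and 8, 3 and 8 without DAPT array 1, 2 and 3. It was 0 with only the A4 and control arrays in the fit.

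**Figure D1:**
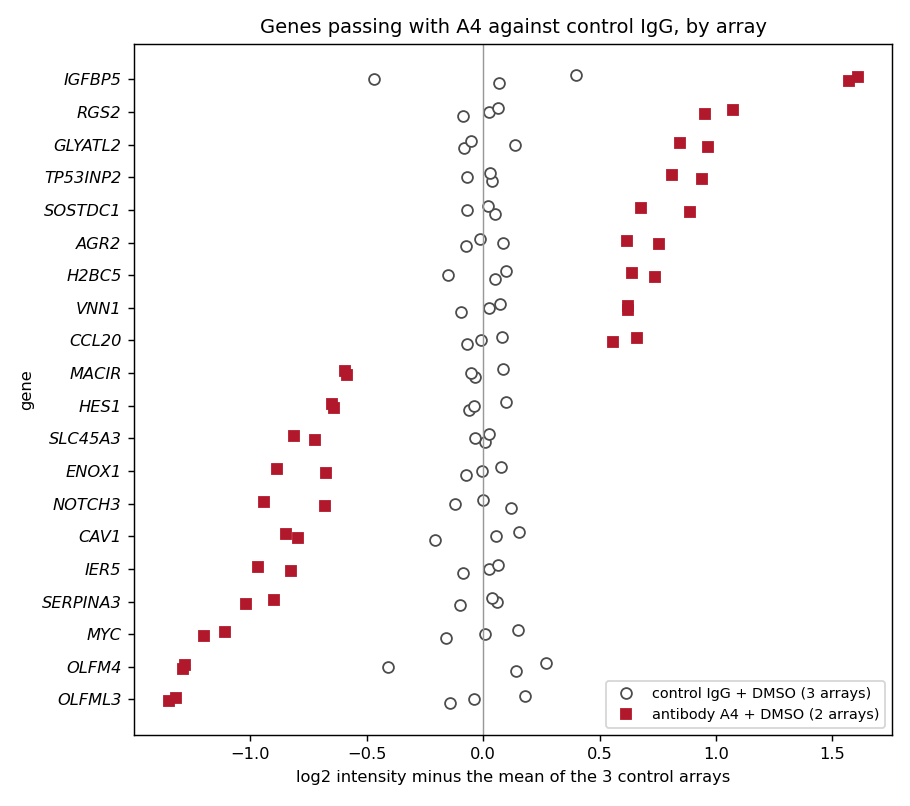
Log2 intensity of the 20 passing genes on each A4 array (squares) and each control array (circles), minus the mean of the 3 controls. In every row both squares lie to 1 side of all circles. The controls are widest for IGFBP5 (6.65 to 7.52 on the log2 scale) and OLFM4 (7.65 to 8.33).

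**Figure D2:**
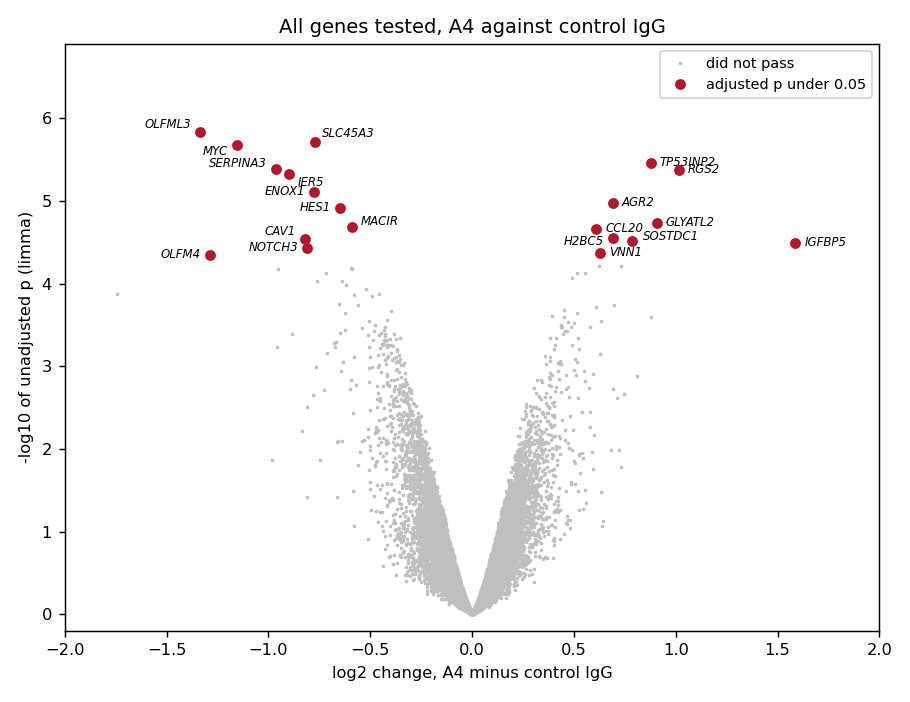
Log2 change (A4 minus control IgG) against -log10 of the unadjusted limma p for 19775 genes. Filled points are the 20 genes that passed. The point farthest to the left, which did not pass, is CGA with a log2 change of -1.74.

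Among the 4 Notch receptors the targeted gene itself was the one that passed. NOTCH3 had log2 levels of 11.36 and 11.10 with A4 and of 12.16, 11.92 and 12.04 in the controls. Both A4 arrays lay below every control, and NOTCH3 fell by 0.81 ± 0.11 (limma adjusted p = 0.0410). An antibody against the receptor protein acts outside the cell, so this RNA level does not measure how far the receptor was blocked. The other NOTCH3 probe set was dimmer (mean 8.81 with A4, 8.99 in the controls) and gave -0.18 ± 0.12, with arrays that overlapped. NOTCH1 (-0.08 ± 0.10), NOTCH2 (0.09 ± 0.12) and NOTCH4 (-0.11 ± 0.16) had overlapping arrays and did not pass. Because the culture was measured in bulk, fewer cells with a transcript and less transcript per cell cannot be told apart, here and for all genes below.

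HES1, the basic helix-loop-helix repressor that is the best known Notch target, was measured at 9.76 and 9.75 with A4. The controls read 10.34, 10.36 and 10.50, so the A4 arrays were alike and lay below all controls. HES1 fell by 0.65 ± 0.08 (limma adjusted p = 0.0243). A second probe set gave -0.58 ± 0.10 with no overlap of the arrays. The third was dim in both groups (mean 6.38 with A4, 6.28 in the controls) and gave 0.10 ± 0.09.

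The 250 bases that precede the HES1 start are shown because HES1 is 1 of the 2 canonical targets that passed, the other being NOTCH3, and because its upstream region carries a pair of RBPJ core motifs. The sequence is from RefSeq on GRCh38.p14, chr3:194135898-194136147, plus strand, with each match to TGGGAA in capitals.
HES1: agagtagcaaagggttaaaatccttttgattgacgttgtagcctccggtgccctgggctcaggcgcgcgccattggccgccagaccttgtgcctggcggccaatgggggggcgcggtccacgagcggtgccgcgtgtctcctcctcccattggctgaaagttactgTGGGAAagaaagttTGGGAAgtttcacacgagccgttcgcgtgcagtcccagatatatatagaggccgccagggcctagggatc
Both matches lie on the strand of the gene and begin 84 and 70 bases before its start. TGGGAA was searched on both strands (its reverse complement is TTCCCA), and no other motif was searched. It occurs in 20.8% of the 35116 upstream windows of this length, with 2 or more matches in 2.9%, and in 25% of the 15384 tested genes that have a window. Among the genes that passed, 17 had a window and 6 (35.3%) held a match. A match of 6 letters is a description of the sequence and does not mark a bound site.

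The other 5 passing genes with a match are shown with up to 20 bases on either side, match in capitals, so that the neighbouring letters can be compared with those of HES1. SERPINA3 is at chr14:94612309-94612354 (plus strand), CCL20 at chr2:227813779-227813824 (plus), IGFBP5 at chr2:216695604-216695649 (minus) and OLFM4 at chr13:53028563-53028589 (plus). CCL20 has 2 matches, both on the strand opposite to the gene, 159 and 43 bases before its start, and the nearer one is shown. MACIR has a match in 2 of its 7 windows, at chr5:103259136-103259181 and chr5:103259773-103259818 (plus).
SERPINA3: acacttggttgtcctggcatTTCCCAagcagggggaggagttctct
CCL20: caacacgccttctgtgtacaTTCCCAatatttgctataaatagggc
IGFBP5: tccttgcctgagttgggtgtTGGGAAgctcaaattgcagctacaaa
OLFM4: gTGGGAAaccaaatattgggctttaca
MACIR, first match: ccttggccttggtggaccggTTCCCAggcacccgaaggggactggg
MACIR, second match: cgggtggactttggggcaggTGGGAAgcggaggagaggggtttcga
SERPINA3, MACIR and OLFM4 were lower with A4, whereas CCL20 and IGFBP5 were higher, so genes with a match were found in both directions. The 250 bases upstream of NOTCH3 held no match.

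None of the remaining canonical targets passed. Of 12 on the list, 2 fell (HES1 and NOTCH3) and none rose. At an unadjusted p under 0.05, 4 were lower, where 4.85% of all genes were. The list's median change was -0.11 against 0.00474 over all genes. CCND1, which encodes the G1 cyclin D1, read 9.95 and 9.85 with A4 and 10.44, 10.61 and 10.80 in the controls. Its arrays did not overlap, and its change of -0.72 ± 0.11 lay just outside the threshold (limma adjusted p = 0.0531). NRARP, a feedback inhibitor of the Notch complex, read 8.60 and 8.71 against 8.86, 9.14 and 8.88 (-0.31 ± 0.10, adjusted p = 0.342). HES4 was at -0.24 ± 0.11 (adjusted p = 0.575). For 5 of the 12 genes, NRARP and HES4 among them, both A4 arrays lay below every control, as they did for 12.3% of all genes. HEY1, HEY2, HEYL, HES2, HES5, HES7 and DTX1 lay between -0.12 and 0.16 with overlapping arrays. In the agonism experiment 8 of these 12 genes rose with A13, where 5.68% of all genes rose. There NRARP rose by 1.90 ± 0.07 and HEY1 by 0.50 ± 0.06, whereas HES1 rose by 0.33 ± 0.06.

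**Figure D3:**
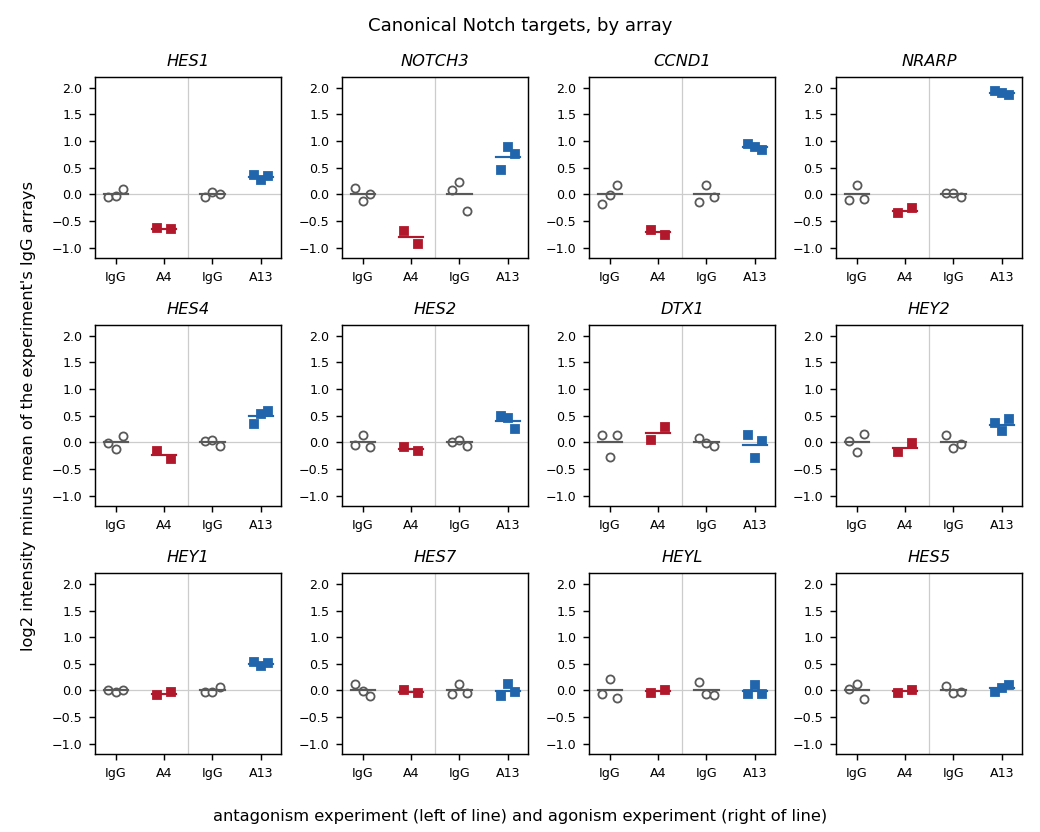
Log2 intensity of the 12 canonical Notch targets on each array, minus the mean of the IgG arrays of the same experiment, ordered by their p with A4. Circles are IgG arrays, squares A4 or A13 arrays, and bars group means. HES1, NOTCH3, CCND1, NRARP and HES4 have both A4 arrays below every IgG array, and the largest A13 shift is that of NRARP (1.90).

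None of the 11 Notch ligand and fringe genes passed, and their median change was 0.04. JAG1, a Notch ligand that is itself a target in some cells, read 10.47 and 10.53 with A4 and 11.12, 10.98 and 11.33 in the controls. Its change was -0.64 ± 0.14 with no overlap (adjusted p = 0.150). LFNG, a glycosyltransferase that modifies Notch receptors, was at 0.16 ± 0.08. The other ligands, JAG2, DLL1, DLL3 and DLL4 among them, overlapped between the groups. Of 21 measured genes for receptor cleavage and the nuclear complex, 0 passed by limma. Where 4.43% of all genes were higher at an unadjusted p under 0.05, 2 of the 21 were. These were the deltex genes DTX4 (0.51 ± 0.10) and DTX2 (0.19 ± 0.08), members of a family of ubiquitin ligases that act on Notch. RBPJ (0.04 ± 0.08), ADAM10 (-0.04 ± 0.08) and ADAM17 (-0.04 ± 0.08) overlapped between the groups.

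MYC, the transcription factor that drives growth and ribosome production, read 9.74 and 9.83 with A4. The controls read 10.78, 10.95 and 11.09, all above both A4 arrays. MYC fell by 1.15 ± 0.11, or 2.23-fold (limma adjusted p = 0.0134). It was the 1 member of 11 measured in the MYC and MAX network that passed, and the others lay between -0.13 and 0.27. MAX, the obligate partner, was at -0.07 ± 0.08, and MXD1, which competes with MYC for MAX, was at 0.27 ± 0.13 (adjusted p = 0.597).

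Genes of ribosome production lay mostly below their control level, and none of them passed. Of 22 measured ribosome biogenesis genes, 20 lay below 0, where 9624 of all 19775 genes did. At an unadjusted p under 0.05, 13 were lower, where 4.85% of all genes were, and the list's median was -0.27. NOLC1 (-0.39 ± 0.08), NOP16 (-0.36 ± 0.07), WDR43 (-0.39 ± 0.09) and nucleolin, NCL (-0.31 ± 0.08), all of the nucleolus, had the smallest p of the list. Medians by array, relative to each gene's control mean, were -0.22 and -0.27 with A4 and -0.02, -0.06 and 0.10 in the controls. Without A4 array 2 the count of 13 became 6, and with controls 2 and 3 left out it became 9.

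All 16 polyamine, purine and one-carbon genes lay below 0, with 7 lower at an unadjusted p under 0.05 and a median of -0.20. Over all genes, 9624 of 19775 lay below 0 and 4.85% were lower at that p. IMPDH2, the enzyme that commits purines to guanine nucleotides, read 11.40 and 11.41 against 11.72, 11.77 and 11.91 (-0.40 ± 0.08, adjusted p = 0.113). PPAT, the first enzyme of purine synthesis, was at -0.30 ± 0.07, PAICS, a later one, at -0.33 ± 0.09 and the mitochondrial folate enzyme MTHFD2 at -0.30 ± 0.08. None of the list passed. In the agonism experiment 10 of these 16 and 17 of the 22 ribosome biogenesis genes rose with A13, where 5.68% of all genes rose.

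Cell cycle genes also lay below their control level without passing. All 32 measured genes of the G1/S transition and DNA replication lay below 0, where 9624 of all 19775 genes did. At an unadjusted p under 0.05, 21 were lower, where 4.85% of all genes were, and the list's median was -0.22. MCM10 (-0.49 ± 0.09) and GINS2 (-0.38 ± 0.07), which act at replication origins, the clamp loader subunit RFC4 (-0.42 ± 0.08) and the repressor E2F8 (-0.49 ± 0.10) led the list, each with no overlap of arrays. Array medians were -0.20 and -0.24 with A4 and between -0.04 and 0.06 in the controls. The count of 21 became 16 without A4 array 1 and 11 without A4 array 2.

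Of 30 mitotic genes, 29 lay below 0, 14 were lower at an unadjusted p under 0.05, and the median was -0.20. Over all genes, 9624 of 19775 lay below 0 and 4.85% were lower at that p. The spindle checkpoint kinase TTK read 11.36 on both A4 arrays against 11.62, 11.75 and 11.71 (-0.33 ± 0.07, adjusted p = 0.153). KIF23 (-0.35 ± 0.08) and ANLN (-0.31 ± 0.07), both of cytokinesis, and HMMR (-0.33 ± 0.08) followed. The count of 14 became 9 and 8 without A4 array 1 and 2, and 9 with controls 2 and 3 left out. With A13, 4 of the 32 G1/S genes and 7 of the 30 mitotic genes rose, where 5.68% of all genes rose.

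The 23 genes of the ATF4 and amino acid stress list all lay below 0 as well, with a median of -0.20. At an unadjusted p under 0.05, 13 were lower, where 4.85% of all genes were. Over all genes, 9624 of 19775 lay below 0. XPOT, which exports transfer RNA from the nucleus, read 11.54 and 11.32 against 11.95, 12.03 and 12.08. Its change of -0.59 ± 0.09 had an adjusted p of 0.0529 in limma. PSAT1, of serine synthesis, was at -0.42 ± 0.07, and SLC7A5 and SLC3A2, the 2 chains of a large neutral amino acid transporter, at -0.54 ± 0.10 and -0.42 ± 0.09. Control 3 was high for this list: its median was 0.15, against -0.05 and -0.10 for controls 1 and 2 and -0.21 and -0.23 for the A4 arrays. Without control 3 the list's median was -0.14 with 9 lower, with either A4 array left out 7 were lower, and with controls 2 and 3 left out 8 were lower.

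**Figure D4:**
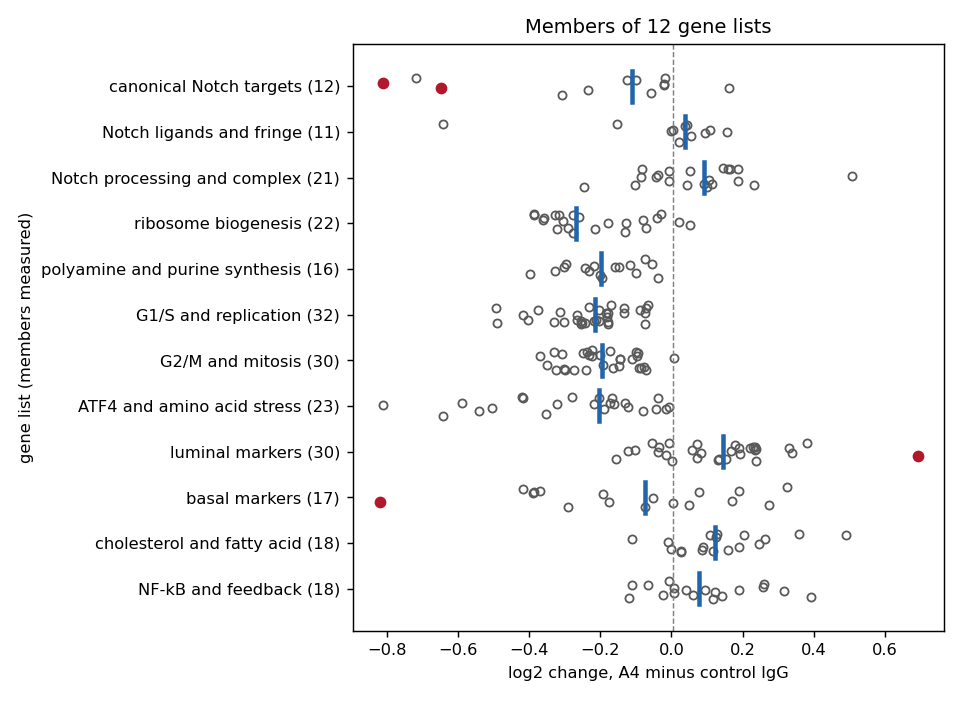
Log2 change with A4 for the measured members of 12 gene lists, 1 point per gene. Filled points passed, bars are list medians, and the dashed line is the median of all genes. The ribosome, polyamine and purine, G1/S, G2/M and ATF4 lists lie almost wholly to the left of the line with medians from -0.27 to -0.20, without a filled point.

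Secreted proteins held the largest single changes. OLFML3, a secreted olfactomedin-domain glycoprotein, read 9.98 and 10.01 with A4 and 11.19, 11.29 and 11.51 in the controls. It fell by 1.33 ± 0.12, or 2.52-fold, and had the smallest p of all genes (limma adjusted p = 0.0134). OLFM4, a secreted olfactomedin known as a marker of intestinal stem cells, read 6.77 and 6.78 against 8.20, 7.65 and 8.33. It fell by 1.29 ± 0.18 (adjusted p = 0.0444), the passing gene nearest to the threshold. On the A4 arrays OLFM4 stood at the 16.7 to 17.1 percentile of genes, and on the controls between the 32.9 and 48 percentiles.

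SERPINA3, the protease inhibitor antichymotrypsin of the acute phase, read 9.97 and 10.09 against 10.89, 11.05 and 11.03. It fell by 0.96 ± 0.10 (limma adjusted p = 0.0134). In the other direction IGFBP5, which binds insulin-like growth factors, read 8.69 and 8.73 against 7.19, 6.65 and 7.52. It rose by 1.59 ± 0.21, the largest passing change (adjusted p = 0.0376), over controls that were far apart. Its other 5 probe sets were dimmer than this probe set with A4, and 2 of them were brighter than it in the controls. Their own changes, A4 minus control, lay between -0.15 and 0.49, and the one at -0.15 was the only one below 0. The size of the IGFBP5 change therefore depends on the probe set.

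SOSTDC1, a secreted antagonist of BMP and Wnt signals, read 9.60 and 9.39 against 8.76, 8.64 and 8.73 and rose by 0.79 ± 0.10 (limma adjusted p = 0.0373). CCL20, the chemokine ligand of CCR6, read 7.70 and 7.80 against 7.07, 7.13 and 7.22 and rose by 0.61 ± 0.08 (adjusted p = 0.0327). The neutrophil chemokines CXCL8 (0.88 ± 0.15, adjusted p = 0.104) and CXCL1 (0.81 ± 0.18, adjusted p = 0.160) had arrays above all controls without passing. CCL20 was the 1 of 24 measured chemokines and cytokines that passed, and the list's median was -0.01.

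Among genes of luminal and secretory breast epithelium, AGR2 and GLYATL2 rose, whereas OLFML3 and OLFM4 of the secretory list fell. AGR2, a protein disulfide isomerase of the endoplasmic reticulum in mucus-secreting cells, read 11.37 and 11.23 against 10.54, 10.70 and 10.60. It rose by 0.69 ± 0.08 (limma adjusted p = 0.0232). GLYATL2, a glycine acyltransferase, read 12.04 and 11.92 against 10.99, 11.21 and 11.02 and rose by 0.91 ± 0.11 (adjusted p = 0.0327). CYP4Z1, a cytochrome P450 of mammary tissue, was just outside the threshold (0.62 ± 0.09, adjusted p = 0.0529), as was CRISP3, a secreted cysteine-rich protein (0.73 ± 0.10, adjusted p = 0.0529).

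Of 30 measured luminal markers, 22 lay above 0, 6 were higher and 0 lower at an unadjusted p under 0.05, and the median was 0.14, or 0.09 without control 2. Over all genes, 10151 of 19775 lay above 0, and 4.43% were higher and 4.85% lower at that p. Beside AGR2 the 6 higher markers included the lipocalin LCN2 (0.38 ± 0.08), the tight junction gene CLDN3 (0.34 ± 0.10) and the membrane mucin MUC1 (0.33 ± 0.11), none of which passed. With A13, 18 of the 30 luminal markers fell and 1 rose, where 9.02% of all genes fell and 5.68% rose. Of 17 basal markers CAV1 alone passed, and the median was -0.08. At an unadjusted p under 0.05, 6 were lower and 2 higher, where 4.85% of all genes were lower and 4.43% higher. ITGB4, an integrin chain of hemidesmosomes, was at 0.32 ± 0.09 (adjusted p = 0.269) with both A4 arrays above all controls. KRT5, a keratin of basal cells, was at -0.39 ± 0.12 (adjusted p = 0.331) and S100A2 at -0.42 ± 0.09 (adjusted p = 0.156).

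Membrane and signalling genes made up much of the rest. RGS2, which speeds the shut-off of G proteins of the Gq class, read 11.83 and 11.95 against 10.79, 10.90 and 10.94 and rose by 1.02 ± 0.10 (limma adjusted p = 0.0134). TP53INP2, a nuclear protein that also takes part in autophagy, read 10.83 and 10.70 against 9.93, 9.82 and 9.92 and rose by 0.88 ± 0.09 (adjusted p = 0.0134). RGS2 was the 1 of 16 genes of its list that passed and TP53INP2 the 1 of 22 autophagy and lysosome genes. VNN1, a membrane-anchored pantetheinase, read 8.07 on both A4 arrays against 7.35, 7.47 and 7.52 and rose by 0.63 ± 0.09 (adjusted p = 0.0440).

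CAV1, the main coat protein of caveolae, read 10.95 and 10.90 against 11.54, 11.80 and 11.90 and fell by 0.82 ± 0.11 (limma adjusted p = 0.0373). Its second probe set gave -0.52 ± 0.09, and its partner CAV2 was at -0.37 ± 0.08 (adjusted p = 0.133). SLC45A3, a membrane transporter best known from prostate, read 8.67 and 8.58 against 9.40, 9.36 and 9.42 and fell by 0.77 ± 0.07 (adjusted p = 0.0134). Its other probe set gave -0.13 ± 0.09 with overlapping arrays. ENOX1, a cell surface oxidase, read 7.20 and 6.99 against 7.80, 7.87 and 7.95 and fell by 0.77 ± 0.09 (adjusted p = 0.0191).

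IER5, a gene of the immediate early response, read 11.83 and 11.69 against 12.57, 12.68 and 12.72 and fell by 0.90 ± 0.09 (limma adjusted p = 0.0134), the 1 of 26 immediate early genes that passed. MACIR, a regulator of macrophage metabolism, read 9.67 and 9.66 against 10.22, 10.20 and 10.34 and fell by 0.59 ± 0.07 (adjusted p = 0.0327). H2BC5, a histone H2B gene, read 10.87 and 10.77 against 10.18, 9.98 and 10.23 and rose by 0.69 ± 0.09 (adjusted p = 0.0373). Both of its probe sets end in _x_at and can detect other H2B genes of nearly the same sequence, so which H2B gene rose is uncertain. Across the 8 passing genes with several probe sets, 11 of 13 other probe sets had the same sign, and 5 of these had an unadjusted p under 0.05. Over all genes, 9.28% had such a p. The other probe sets were read on the same arrays that chose the genes, so they are no separate support.

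Some of the largest mean differences did not pass, and their controls were often far apart. CGA, the shared alpha chain of the glycoprotein hormones, read 7.37 and 7.25 with A4 and 9.07, 8.71 and 9.38 in the controls. Its change of -1.74 ± 0.28, or 3.35-fold, was the largest of all genes and had an adjusted p of 0.0752. The neighbouring protease inhibitor genes SERPINB4 (-0.95 ± 0.14, adjusted p = 0.0529) and SERPINB3 (-0.88 ± 0.16, adjusted p = 0.112) are near-identical copies whose probes may not separate them. NRP1, a co-receptor of semaphorins and VEGF, read 7.61 and 7.46 against 8.70, 8.04 and 8.75 (-0.96 ± 0.19, adjusted p = 0.114). Between adjusted p-values of 0.05 and 0.1 there were 25 further genes, 9 higher and 16 lower.

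The agonist antibody A13 gave a measurement of the same genes on arrays that share no sample with the A4 comparison. There the cells had 5 µM DAPT for 16 h and 2 h in plain medium, and then 20 µg/ml of A13 or control IgG until harvest at 24 h, so dose and pretreatment differed from the A4 experiment. All 20 genes that passed with A4 also passed with A13, each in the opposite direction: the 11 that fell with A4 rose with A13 and the 9 that rose with A4 fell. Over all genes 14.7% passed with A13 (5.68% higher, 9.02% lower). For all 20 genes the A13 arrays lay outside the range of their IgG arrays, as they did in the higher direction for 12.8% and in the lower direction for 18.2% of all genes. The count was 19 or 20 with each A13 or IgG array left out.

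The sizes differed between both experiments, and 10 of the 20 changes were larger with A13. OLFM4 rose by 3.98 ± 0.12 with A13 after its fall of 1.29 ± 0.18 with A4. GLYATL2 (-1.91 ± 0.07), RGS2 (-1.66 ± 0.10), VNN1 (-1.55 ± 0.16) and AGR2 (-1.47 ± 0.07) fell with A13 by more than they rose with A4. HES1 (0.33 ± 0.06), CAV1 (0.34 ± 0.08), OLFML3 (0.79 ± 0.09) and SOSTDC1 (-0.26 ± 0.08, limma adjusted p = 0.0363) moved less with A13 than with A4. MYC rose by 1.33 ± 0.07 and NOTCH3 by 0.70 ± 0.14. Differences in size between the experiments were not tested.

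**Figure D5:**
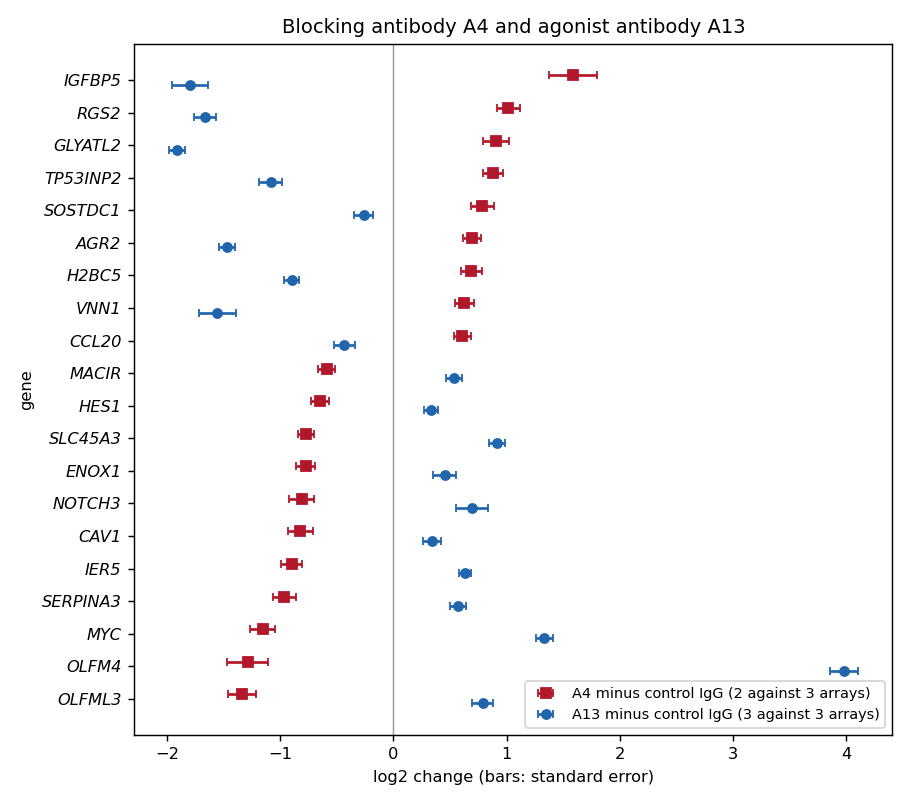
Log2 change of the 20 passing genes with A4 (squares, 2 against 3 arrays) and with A13 (circles, 3 against 3 arrays), each against the control IgG of its own experiment. Bars are standard errors. The symbols lie on opposite sides of 0 in every row, and OLFM4 has the largest A13 change at 3.98.

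Genes outside the threshold with A4 varied in their A13 values. Of the 10 genes with large, non-overlapping A4 differences that did not pass, 4 passed with A13 in the opposite direction and 6 did not pass. CGA (0.09 ± 0.11), SERPINB4 (0.10 ± 0.09), SERPINB3 (-0.05 ± 0.09), IRX1 (0.03 ± 0.10), CXCL8 (-0.14 ± 0.15) and CXCL1 (-0.22 ± 0.09) were the 6. NRP1 (1.06 ± 0.09), PDZK1 (-1.77 ± 0.11), CRISP3 (-0.97 ± 0.09) and MEGF10 (-0.58 ± 0.12) were the 4. Of the 25 genes with an adjusted p from 0.05 to 0.1, 19 passed with A13 in the opposite direction, 5 did not pass and 1 passed in the same direction. The share of all genes passing with A13 was 14.7% (5.68% higher, 9.02% lower). ID1, an inhibitor of basic helix-loop-helix factors, read 10.04 and 10.14 with A4 against 10.52, 10.67 and 10.77 (-0.56 ± 0.09, limma adjusted p = 0.0892) and fell with A13 by 0.42 ± 0.08 (adjusted p = 0.00082).

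Other gene groups held no passing gene. Of 18 measured cholesterol and fatty acid genes, 0 passed by limma, and the median was 0.12. At an unadjusted p under 0.05, 6 were higher and 0 lower, where 4.43% of all genes were higher and 4.85% lower. LSS, of cholesterol synthesis, was at 0.26 ± 0.08 and MVD, of the mevalonate pathway, at 0.49 ± 0.15. The count of 6 became 2 and 3 without A4 array 1 and 2. None of 24 interferon-stimulated genes passed (median 0.05), nor any of 20 glycolysis and hypoxia genes (0.01), 16 measured p53 targets (0.02), 16 genes of epithelial-mesenchymal transition (0.04) or 18 genes of the NF-kB pathway (0.08). By limma 2, 2, 3, 1 and 4 of these lists' members had an unadjusted p under 0.05 and none passed. Over all genes 9.28% had such a p.

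The rest of the lists held at most 1 passing gene each, apart from the 19 secretory products with 1 higher (GLYATL2) and 2 lower (OLFML3 and OLFM4). At an unadjusted p under 0.05 the secretory list had 9 higher and 3 lower, with a median of 0.10. Of all genes, 4.43% were higher and 4.85% lower at that p. Serpins (1 of 15, SERPINA3), acute-phase and complement genes (1 of 17, SERPINA3 again), the insulin-like growth factor axis (1 of 13, IGFBP5) and caveolae with YAP targets (1 of 20, CAV1) had medians between -0.02 and 0.05. None passed among 13 G1 cyclins and their inhibitors, where 3 were lower at an unadjusted p under 0.05 (CCND1, CDK6 at -0.38 ± 0.11 and CDK4 at -0.21 ± 0.07) and CDKN1A, which restrains them, was at 0.25 ± 0.09. None passed among 17 MAP kinase feedback genes, 14 EGFR family genes, 15 neuropilin and semaphorin genes, 16 ID, SMAD and BMP genes, 17 Wnt regulators, 18 matrix proteases, 19 folding genes of the endoplasmic reticulum and 15 BCL2 family genes. Their medians lay between -0.01 and 0.06. In these 8 lists 3 to 6 members had an unadjusted p under 0.05, except for 1 of 14 in the EGFR family and 2 of 19 among the folding genes. The share over all genes was 9.28%.

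Markers of other cell types did not pass. Of 10 fibroblast, 10 immune and 8 endothelial genes measured, 0 passed by limma and 0 had an unadjusted p under 0.05. On all 5 arrays COL1A1, CD14, PECAM1 and TEK were the ones above the array's median gene. Summed intensities were 2840 to 2990 with A4 and 2700 to 3440 in the controls for the fibroblast list, and 1810 to 1920 and 1750 to 2020 for the endothelial list. The immune list summed to 3460 to 3570 with A4 and 3700 to 3770 in the controls, with CD14 at -0.16 ± 0.07. The part of these levels in the results was not tested.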

How the data were processed

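Total RNA was measured on Affymetrix HG-U133 Plus 2.0 arrays. The table deposited by the authors holds a linear intensity per probe set and array (11.9 to 27281 in the antagonism experiment). The submitters' processing notes name RMA and R 2.10 without saying what each did. RMA makes array distributions alike, so a shift of most transcripts in 1 direction would be reduced. The analysis plan took these values to log2 before testing.

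Of 54675 probe sets, 62 were controls, 41091 had 1 gene symbol, 1801 several and 11721 none. For 41037 the gene ID matched the RefSeq table (GRCh38.p14, used for names). Where a gene had several single-gene probe sets, the one brightest on average over the 26 arrays was used. Dim genes were kept, and the table had 0 columns of other samples. Probe sets ending in _s_at or _x_at can detect related transcripts.

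Log2 changes were tested in R 4.3.3 by limma 3.58.1 (lmFit, contrasts.fit, eBayes, two-sided) over all 8 antagonism arrays (5 residual degrees of freedom) and, for A13, all 18 agonism arrays (12). Array number limits precision: the median SE was 0.0981 for A4 and 0.0811 for A13. The fit was run on simulated data with known changes and, for each gene, the same spread on every array. The wider spread of controls 2 and 3 was not simulated. The 39 gene lists and the members were chosen with earlier results of these data known. Named genes were all that passed, the 10 largest rises and 10 largest falls without overlap of arrays, all Notch and MYC network members, up to 4 of each other list by p, and the cell line markers. Upstream windows came from RefSeq and were absent from the table used for MYC, SOSTDC1 and VNN1. Alternatives covered left-out arrays, scaling, probe set choice, level filter, variance model and an added constant. Figures were drawn with matplotlib.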

Additional observations from a re-analysis of the deposited data

How the results depend on the processing

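The count of 20 genes passing with A4 ranged from 0 to 96 when 1 array was left out. It was 0 with only both groups in the fit, 53 after repeated quantile normalization, 107 among genes above the median level, 142 with a variance trend and 144 with a robust trend, 1787 with array weights, 35 for log2 of the value plus 32, and 10 with controls 2 and 3 left out, an alternative added after seeing the data. The array weights did not converge and gave control 1 a weight of 40. With 1 A4 array, or control 1 alone, the lone array was assumed to vary like the other groups. Fewer genes or samples were tested where arrays or genes were left out. Why the counts moved was not tested for any setting. All 20 genes kept their call without control 2, after repeated quantile normalization, with a trend, a robust trend or array weights, and with 32 added; 15 kept it after median centring and 15 with the mean of all probe sets. Of 391 gene results under alternatives, 231 kept and 159 lost the call, and each of the 20 genes lost it at least once. One reversed: HES1 was 0.10 when probe sets of the _x_at and _s_at kinds were dropped, which leaves only its dim probe set. VNN1 lost the call in 12 of 19 settings, NOTCH3 in 11 of 19 and HES1 in 11 of 20, against 3 of 20 for OLFML3 and 3 of 19 for MYC. In a limma fit over all 54613 probe sets that are not controls, 9 passed. There the adjusted p was 0.0420 for OLFML3 and MYC, 0.0846 for HES1, 0.105 for IGFBP5, 0.116 for NOTCH3 and 0.119 for OLFM4. The A13 count of 20 stayed between 17 and 20, the 17 being all passing genes above the median level. The medians of 22 of 39 lists changed sign under some alternative; those of the ribosome, polyamine and purine, G1/S, G2/M and ATF4 lists stayed below 0. No paired analysis was possible because the labels give no replicate numbers that pair A4 with control arrays.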
